A study of Homo sapiens with 24 samples.

Results

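The 2882 long non-coding RNA (lncRNA) intervals described here lie on human chromosome 19 and were measured in HEK293 cells, a human embryonic kidney line, that overexpressed a control protein or a nuclear lamin. They were taken from a deposited small RNA table of 175946 rows, of which 155223 are lncRNA rows and 5802 are lncRNA rows of chromosome 19. An interval was kept if it was at most 200000 bp long, began before position 52000000, carried a name of the lnc-, NONHSAG or HSALNG type, and lay neither in the zinc finger gene cluster next to the centromere on the short arm nor at the LMNB2 locus. The intervals were selected on annotation and position, but chromosome 19 itself was chosen by measured values, the small RNA differences of LMNB2-overexpressing cells in these libraries. Every small RNA value of LMNB2-overexpressing cells given here is therefore a description, and nothing is read from it as support. The ATAC measurements did not enter the choice.

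The 4 groups were wild-type HEK293 cells overexpressing eGFP (the control, called GFP), LMNA, LMNB1 or LMNB2, with 3 replicates per group and assay. Small RNA libraries were made after enriching the short fraction of total RNA, and ATAC libraries, which read how open chromatin is to a transposase, came from 100000 cells collected after the same overexpressions. The labels do not say whether replicates were separate cultures, so p-values measure the spread between these libraries, which may be technical, and the vector and the time after overexpression are not given in the sources used here. In bulk RNA, fewer cells that carry a transcript and less of it per cell cannot be told apart. The tables hold small RNA and lncRNA rows, so the cell line was not checked against protein-coding markers.

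Lamins are intermediate filament proteins that form a meshwork under the inner nuclear membrane. LMNA encodes the A-type lamins, LMNB1 and LMNB2 encode the B-type lamins, and the meshwork anchors transcriptionally quiet chromatin at the nuclear edge. Chromosome 19 is the most gene-dense human chromosome and carries many clustered zinc finger genes, most of which encode KRAB zinc finger proteins, repressors that bind transposable elements. The intervals carry the names of lncRNA catalogues and are gene models, often nested in or antisense to protein-coding genes. A small RNA read counted in such an interval can come from a fragment of the lncRNA, from a fragment of the messenger RNA or intron of an overlapping gene, or from a small RNA gene inside the interval.

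Names of the lnc- type made up 2245 of the 2882 intervals, NONHSAG names 427 and HSALNG names 210. The intervals carried 1962 distinct names, because many are alternative extents of a single locus, and they merged into 1518 blocks that share no base. Their length ran from 211 to 191571 bp with a median of 2504 bp. On the short-arm side of the excluded cluster lay 1275 intervals and on the long-arm side 1607. At the length limit of the rule, the longest interval kept was lnc-VSTM2B-9 with 191571 bp and a small RNA log2 fold change of 0.53 in LMNB2 over GFP, and the shortest left out was lnc-PSG1-1 with 229655 bp and 1.05. At the position limit, the last interval kept was lnc-ZNF615-1 with 1.19, and lnc-ZNF614-1, the next one, had too few counts for a fit. Strand was not told apart where it could be read from the tables: lnc-CCDC61-4 (plus strand) and lnc-IGFL4-1 (minus strand), which have nearly the same extent, averaged 8.1 and 8.5 counts, and a minus-strand ribosomal RNA row held 99.8% of the counts of lnc-CEACAM21-5 (plus strand). The strand given with an interval is therefore that of its annotation, and reads of a sense and an antisense partner cannot be told apart. Because overlapping intervals share reads, counts of intervals are also given as the largest number that share no base.

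Several of the intervals with more small RNA counts in LMNB2 cells begin at the promoters of zinc finger genes between 36 and 38 Mb (megabases) and near 52 Mb. Promoter windows from RefSeq (GRCh38.p14, 250 bases before to 50 after an annotated start) are shown for 3 of these genes because called intervals begin inside or cover them. The interval lnc-ZNF461-2 (minus strand) and its divergent neighbour lnc-ZNF567-5 (plus strand) meet in the ZNF461 window at chr19:36666788-36667087 (minus strand). The longest called interval of lnc-ZNF566-2 (chr19:36456435-36489927) covers the ZNF566 window at chr19:36489512-36489811 (minus strand), and NONHSAG026386.2 covers the ZNF577 window at chr19:51887902-51888201 (minus strand). Capitals mark matches to the motif of ACTNC, any 2 bases and TTCCCA (N is any base), searched on both strands and picked after these sequences had been looked at.
ZNF461: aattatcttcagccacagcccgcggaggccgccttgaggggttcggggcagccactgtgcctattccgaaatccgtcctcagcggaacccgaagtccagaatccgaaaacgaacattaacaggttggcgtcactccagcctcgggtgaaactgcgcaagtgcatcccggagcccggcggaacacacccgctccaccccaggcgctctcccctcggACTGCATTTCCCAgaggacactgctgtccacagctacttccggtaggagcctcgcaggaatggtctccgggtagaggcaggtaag
ZNF566: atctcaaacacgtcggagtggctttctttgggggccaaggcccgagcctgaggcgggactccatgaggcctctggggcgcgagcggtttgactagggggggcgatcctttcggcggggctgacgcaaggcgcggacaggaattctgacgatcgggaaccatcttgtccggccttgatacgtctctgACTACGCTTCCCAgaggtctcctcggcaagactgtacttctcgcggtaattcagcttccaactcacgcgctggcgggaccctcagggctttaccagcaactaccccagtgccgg
ZNF577: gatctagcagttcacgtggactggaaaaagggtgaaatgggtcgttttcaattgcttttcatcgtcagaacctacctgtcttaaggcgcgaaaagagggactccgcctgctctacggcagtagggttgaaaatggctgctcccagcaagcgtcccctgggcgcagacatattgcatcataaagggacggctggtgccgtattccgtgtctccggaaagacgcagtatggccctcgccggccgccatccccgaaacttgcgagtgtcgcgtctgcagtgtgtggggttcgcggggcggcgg

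The motif lay at bases 216 to 228 of the ZNF461 window and at bases 187 to 199 of the ZNF566 window, and the ZNF577 window held no match. All RefSeq promoter windows held it in 387 of 34796 distinct sequences (1.11%), and windows of chromosome 19 zinc finger genes (symbols starting with ZNF or ZFP) held it in 58 of 308 (18.8%). Zinc finger windows that touched a called interval held it in 10 of 28 (35.7%), and those that touched a tested but uncalled interval in 14 of 43 (32.6%), shares that were not compared by a test. Over windows of any gene, 11 of 48 that touched a called interval held it (22.9%), and 22 of 269 that touched a tested but uncalled one (8.18%). The motif CCGGAAG was in 4 of the same 28 windows (14.3%) against 13 of 43 (30.2%), and GGGCGG in 17 of 28 (60.7%) against 21 of 43 (48.8%). These matches describe the letters of the windows and do not show that any factor binds there.

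Small RNA libraries held 132.5 M to 195.1 M counts (M, mega) and ATAC libraries 156.0 M to 290.2 M. The library scaling factors separated the GFP small RNA replicates 1 (0.63) and 3 (1.31) from the other 10 small RNA libraries (0.88 to 1.16), so results against GFP are given with and without them. The LMNB2 label was checked on the intervals of the LMNB2 locus that the rule leaves out. There, lnc-TIMM13-1 had 188 to 337 counts in the 9 other libraries and 51878 to 59755 in the LMNB2 libraries.

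Most chromosome 19 intervals were barely read in small RNA. Of the 2882, 186 had no count in any of the 12 libraries, 1975 had counts but too few to be tested, and 721 passed edgeR's filter on low counts, 406 of which share no base. The tested intervals had a median mean count of 15.2 per library, and 44 averaged at least 100 counts. Summed over rows, all 2882 intervals together took 0.229% to 0.452% of a library's counts. In such sums a read shared by overlapping intervals counts more than once. The 4 most abundant rows are overlapping versions at the lnc-KLK1-2 locus that share reads, and they made up 69.3% of the summed counts of all 2882. The share of this locus with each read counted once was not computed.

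The 8 most abundant intervals that share no base were lnc-KLK1-2, lnc-IZUMO2-2, NONHSAG026242.2, lnc-S1PR2-3, HSALNG0123415, NONHSAG024361.2, lnc-CEACAM21-5 and lnc-RPS16-3. In 7 of them a small RNA gene inside the interval, or a family of such genes, overlapped the counted bases. SNORD88C, a C/D box small nucleolar RNA (snoRNA, a guide of ribose methylation), held 95.9% of the counts of lnc-KLK1-2. SNORD32A held 83.8% of NONHSAG026242.2, which lies in RPL13A, a ribosomal protein gene that hosts 4 snoRNAs, and copies of the SNAR genes, short transcripts of RNA polymerase III, lay inside lnc-IZUMO2-2. Transfer RNA genes held 98.7% of NONHSAG024361.2 (tRNA-Asn-GTT-1-6) and 99.5% of lnc-RPS16-3 (tRNA-Ile-TAT-1-1), and a row of large-subunit ribosomal RNA held 99.8% of lnc-CEACAM21-5. The exception was lnc-S1PR2-3 in DNMT1, the maintenance DNA methyltransferase gene, where the only small RNA row inside held 0.00324% of the counts.

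**Figure D1:**
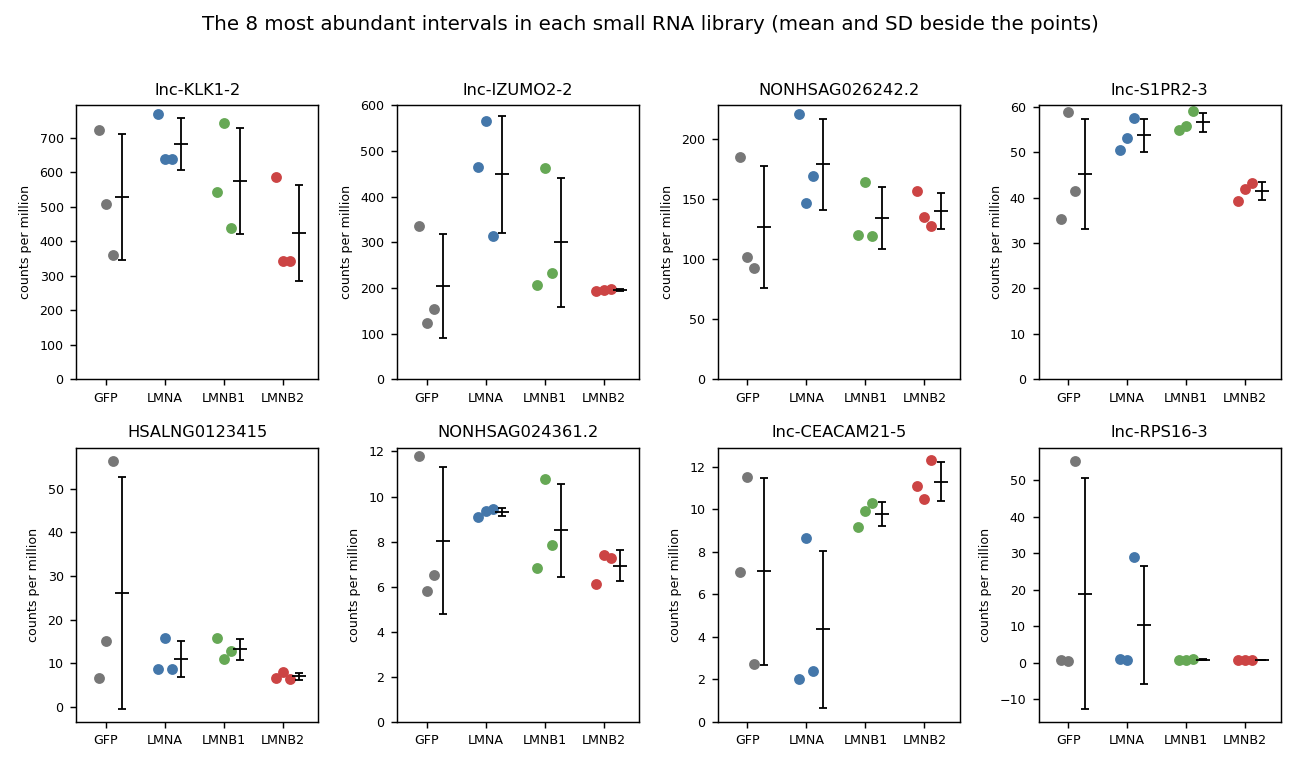
CPM (counts scaled to the size and composition of each library) of the 8 most abundant intervals in each of the 12 small RNA libraries; points are libraries, and the bar beside each group is the mean with its SD (n = 3). For lnc-RPS16-3 GFP replicate 3 and LMNA replicate 3 lie far above the other libraries, and for HSALNG0123415 GFP replicate 3 does.

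The interval lnc-KLK1-2 (chr19:50798679-50803900, minus strand) had 722, 507 and 359 CPM with GFP, 770, 639 and 638 with LMNA, 544, 742 and 438 with LMNB1 and 586, 343 and 343 with LMNB2. The groups overlapped, and its log2 fold change of LMNB2 over GFP was -0.32 ± 0.31 (SE; edgeR's quasi-likelihood test, adjusted p = 0.601). The interval lnc-S1PR2-3 (chr19:10180438-10184584) had 45.2 ± 12.2 CPM in GFP (SD, n = 3), 41.4 ± 2.00 in LMNB2 and a difference of -0.13 ± 0.22. edgeR called none of the 8 in any comparison with GFP, and DESeq2 called HSALNG0123415 in LMNB2.

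MIR7-3 held 99.6% of the counts of HSALNG0123415 (chr19:4769079-4772581). Its mature miR-7-5p is shown with its seed, the bases 2 to 8 that pair with targets, in capitals, beside 2 microRNAs of the MIR23A, MIR27A and MIR24-2 cluster that lies inside lnc-C19orf57-6; the 3 seeds differ from each other.
hsa-miR-7-5p: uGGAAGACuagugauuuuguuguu
hsa-miR-24-3p: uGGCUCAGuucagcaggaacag
hsa-miR-27a-3p: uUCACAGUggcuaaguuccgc

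HSALNG0123415 had 772, 2068 and 10007 counts with GFP, 1386, 2283 and 1488 with LMNA, 2617, 1794 and 2217 with LMNB1 and 1119, 1239 and 900 with LMNB2. GFP replicate 3 stood far above the other 11 libraries, and the log2 fold change of LMNB2 over GFP of -1.89 ± 0.66 was not called by edgeR (adjusted p = 0.16) and was called by DESeq2 (adjusted p = 0.0384). GFP replicate 3 was also the highest library for MIR24-2, with 5.92 CPM against 1.01 and 1.57 in the other GFP libraries and 1.36 to 1.41 in LMNB2. That MIR24-2 row (chr19:13836301-13836372) covers only part of the printed miR-24-3p (chr19:13836289-13836310). For lnc-RPS16-3, GFP replicate 3 had 9841 counts and LMNA replicate 3 had 4955, against 60 to 160 in the other 10 libraries. Without GFP replicate 3 the LMNB2 over GFP difference was -0.58 for HSALNG0123415 and 0.33 for lnc-RPS16-3, where all libraries had given -4.78, and without GFP replicate 1 edgeR called HSALNG0123415 as lower (-2.36, adjusted p = 0.0385).

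In LMNA or LMNB1 cells no tested interval passed the test in small RNA. Against GFP, edgeR's quasi-likelihood test called 0 intervals in LMNA (30 at an unadjusted p under 0.05, lowest adjusted p 0.742) and 0 in LMNB1 (41 at an unadjusted p under 0.05, lowest adjusted p 0.283), and DESeq2 called 0 in both. Over all 33893 small RNA features tested, 0% were called in LMNA and 0.0384% in LMNB1. At an unadjusted p under 0.05, 5.46% of all features passed in LMNA and 5.51% in LMNB1. The median log2 fold change of the intervals was -0.02 in LMNA and 0.03 in LMNB1, against -0.05 over all features in both. LMNB1 compared with LMNA gave 0 calls by both tools, with 47 intervals at an unadjusted p under 0.05. Of all features, 5.74% passed that unadjusted threshold in LMNB1 over LMNA and 0.0118% were called by edgeR.

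The lowest p of both comparisons belonged to lnc-C19orf57-8 (chr19:13792044-13795177, minus strand), which was not called. It had 64, 54 and 91 counts with GFP, 124, 115 and 126 with LMNA, 149, 142 and 122 with LMNB1 and 96, 108 and 97 with LMNB2. All 9 lamin libraries lay above the 3 GFP libraries, with log2 fold changes of 0.64 ± 0.16 in LMNA (adjusted p = 0.742), 0.75 ± 0.16 in LMNB1 (adjusted p = 0.283) and 0.42 ± 0.16 in LMNB2 (adjusted p = 0.167). Without GFP replicate 3 the LMNA difference was 0.75, with an adjusted p of 0.0435. Next in LMNA came lnc-SLC35E1-1 (-0.99 ± 0.30) and lnc-INSR-1 (-1.03 ± 0.33), and next in LMNB1 came HSALNG0126126 (-1.04 ± 0.31) and HSALNG0124549 (0.94 ± 0.29), none of them called.

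In LMNB2 cells the chromosome 19 intervals were higher as a body. The median log2 fold change over GFP of the 721 tested intervals was 0.48 (interquartile range 0.17 to 0.80), against -0.04 over all features, and 602 of 721 lay above 0. Relative to the GFP mean, the median interval stood at 0.52, 0.54 and 0.52 in the LMNB2 libraries, at -0.01 to 0.04 in GFP, at -0.04 to 0.02 in LMNA and at 0.01 to 0.09 in LMNB1, so the LMNB2 libraries stood apart from the other 9 and the other groups overlapped. Against LMNA the median was 0.49 and against LMNB1 0.44; these comparisons share the LMNB2 libraries. Outside these intervals, lncRNA rows had a median of -0.04 in LMNB2 over GFP (29843 tested). By chromosome, the median of lncRNA rows was 0.45 on chromosome 19 as a whole and 0.25 on chromosome 22, the next highest.

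**Figure D2:**
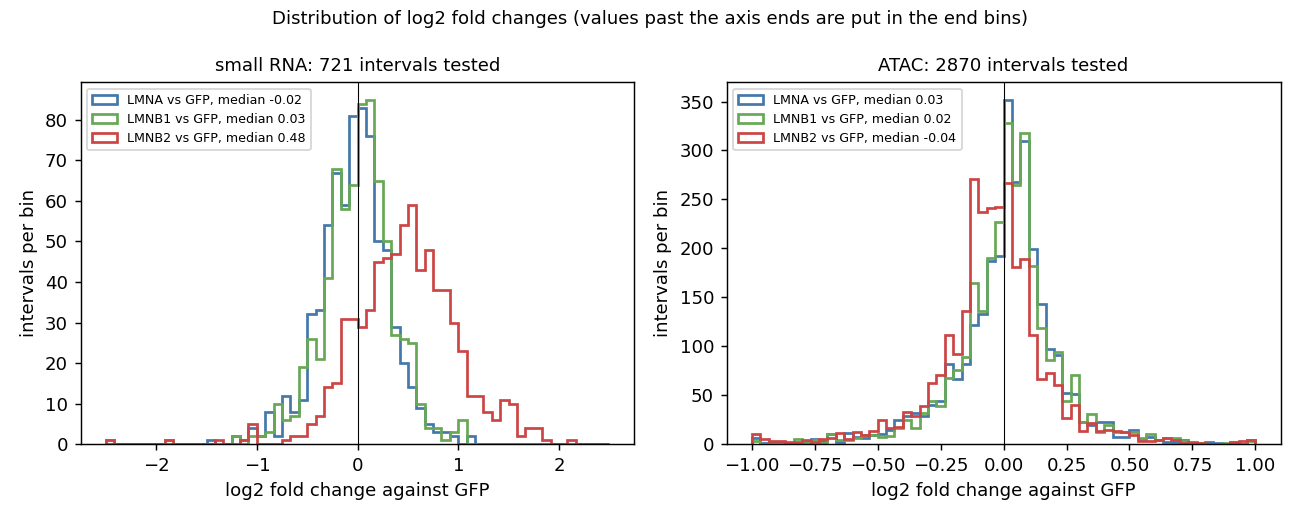
Number of intervals per bin of log2 fold change against GFP, for small RNA (721 tested) and ATAC (2870 tested), a line per lamin. In small RNA the LMNB2 line is centred at 0.48 and the LMNA and LMNB1 lines near 0, while in ATAC all 3 lines are centred between -0.04 and 0.03.

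Called in LMNB2 over GFP (edgeR, adjusted p under 0.05) were 83 of the 721 intervals, all 83 higher and 0 lower, and 55 of them share no base. Of all 33893 features tested, 2.66% were called, 1.91% as higher and 0.752% as lower, and of the lncRNA rows outside these intervals, on any chromosome, 2.36%. Of all chromosome 19 lncRNA rows tested, these intervals included, 228 of 1638 were called (13.9%), all as higher. DESeq2 called 56, 55 of them higher and 1 lower (953 of all 33840 features). At an unadjusted p under 0.05, 291 intervals were higher and 5 lower (19.9% of all features passed in either direction). All 3 LMNB2 libraries lay above all 3 GFP libraries for 322 intervals (44.7%; 12.1% of all features) and below them for 7 (10.2% of all features). Against LMNA 84 intervals were higher and 0 lower (2.01% of all features called), and against LMNB1 81 and 0 (2.19%). In all 3 comparisons 44 were called, 29 of them sharing no base. The comparisons share the LMNB2 libraries, and the same count over all features was not computed. Leaving out any single LMNA or LMNB2 library lowered the count against LMNA to 9 to 33, leaving out any single LMNB1 or LMNB2 library lowered the count against LMNB1 to 18 to 28, and without GFP replicate 3 both were 150. Over all features the same fits called 35 to 221 against LMNA and 144 to 215 against LMNB1. Without GFP replicate 3, 2049 and 2165 of all features were called.

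The count of calls depended on which libraries entered the fit, and the median moved less. With the 6 LMNB2 and GFP libraries alone, 2 of the 83 calls were made, lnc-ZNF567-4 and NONHSAG026386.2 (21 of all 28296 features were called). Without GFP replicate 1 the count was 71, without GFP replicate 3 it was 113, without GFP replicate 2 it was 37, and without LMNB2 replicate 2 it was 11; the median log2 fold change lay between 0.47 and 0.54 whichever library was left out. Without LMNB2 replicates 1 or 3 the counts were 29 and 13 (170 and 60 over all features). Over all features 1390 were called without GFP replicate 1, 2101 without GFP replicate 3 and 316 without GFP replicate 2. Without LMNB2 replicate 2 it was 51. Leaving out LMNB1 replicates 1 or 2 gave 55 and 52 (433 and 393 over all features). Scaling by total counts only gave 55, all higher, with a median of 0.71 against 0.19 over all features. Of all features, 281 were then called as higher and 1 as lower.

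The called intervals were weakly read, with 5.0 to 244.8 mean counts per library (median 21.8, 13 of them below 10). Their log2 fold changes ran from 0.60 to 2.13 (median 1.21). They overlapped 59 protein-coding genes, 27 of them zinc finger genes, and 8 intervals overlapped none. The most often overlapped were ZNF44 (7 called intervals), ZNF566 (5), ZNF461 (4) and ZNF529 (4). The highest log2 fold change, 2.13, belonged to HSALNG0125851 in ZNF540, which averaged 5.0 counts, and the most read interval was lnc-ZNF566-1, which spans ZNF566, ZNF260 and part of ZNF529, with 244.8 counts and 1.14.

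**Figure D3:**
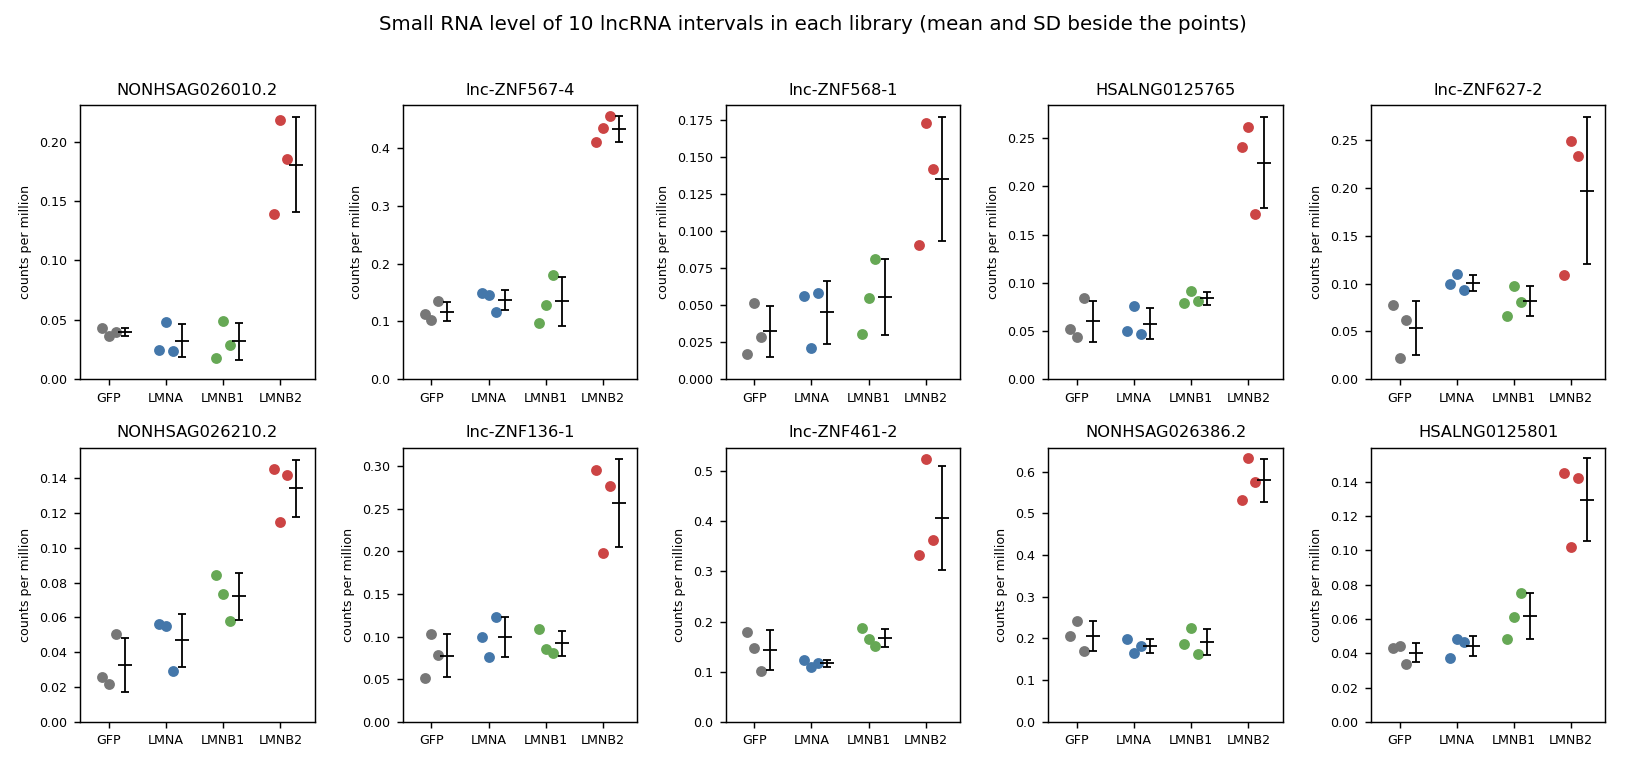
CPM of the 10 intervals with the largest log2 fold change of LMNB2 over GFP among called intervals with a mean of at least 10 counts, separate libraries and no shared base; points are small RNA libraries, and the bar is the mean with its SD (n = 3). As the choice required, in every panel the 3 LMNB2 libraries lie above the 3 GFP libraries.

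Of these 10 intervals, 5 overlap a zinc finger gene, 3 overlap no protein-coding gene and 2 lie in other genes. Among these 5, the largest change was at lnc-ZNF567-4 (chr19:36717681-36732268, plus strand, in ZNF567). It had 13, 14 and 24 counts with GFP, 24, 21 and 20 with LMNA, 16, 21 and 31 with LMNB1 and 68, 68 and 64 with LMNB2. The LMNB2 libraries were each more than the highest of the other 9, and the CPM was 0.433 ± 0.0224 (SD, n = 3) against 0.117 ± 0.0167 in GFP (log2 fold change 1.77 ± 0.22, edgeR adjusted p = 0.000623). NONHSAG026386.2 (chr19:51853398-51900556, annotated on the plus strand, opposite to ZNF577 and ZNF649) had 24, 33 and 30 counts with GFP, 32, 24 and 31 with LMNA, 31, 37 and 28 with LMNB1 and 88, 99 and 81 with LMNB2. Again the other groups overlapped and the LMNB2 libraries stood above them (1.45 ± 0.18, adjusted p = 0.000832).

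At the divergent promoter printed above, lnc-ZNF461-2 (chr19:36645127-36666878) had 21, 20 and 18 counts with GFP, 20, 16 and 20 with LMNA, 31, 27 and 26 with LMNB1 and 55, 82 and 51 with LMNB2. Its LMNB2 libraries lay above all others, with 1.46 ± 0.23 (adjusted p = 0.0058; 0.0539 without LMNB2 replicate 2). On the other side of that promoter, lnc-ZNF567-5 was also called, with a log2 fold change of 1.32 and an adjusted p of 0.0168; it was picked for its position after its values were seen. Another interval in ZNF567, lnc-ZNF567-1 (chr19:36677363-36686861), was named under the same limits (a mean of at least 10 counts, separate libraries, no shared base) for LMNB2 over LMNA (1.79 ± 0.30) and over LMNB1 (1.83 ± 0.30). It had 24, 21 and 16 counts in GFP and 58, 62 and 43 in LMNB2, and 7 to 23 in the LMNA and LMNB1 libraries.

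On the short-arm side, lnc-ZNF136-1 (chr19:12194958-12239254, plus strand), which overlaps ZNF44, had 6, 14 and 14 counts with GFP, 16, 11 and 21 with LMNA, 18, 14 and 14 with LMNB1 and 49, 31 and 39 with LMNB2. The LMNB2 libraries lay above the other 9 (1.56 ± 0.26, adjusted p = 0.00809), and 6 overlapping versions of this name, this one included, were called. In ZNF420, lnc-ZNF568-1 (chr19:37010040-37061395) had 2, 7 and 5 counts in GFP and 15, 27 and 20 in LMNB2, with 3 to 14 in LMNA and LMNB1. That last pair of groups came within 1 count of the lowest LMNB2 library, and its call (1.70 ± 0.38, adjusted p = 0.031) was lost without GFP replicate 1 (0.0534), LMNB1 replicate 2 (0.0516), LMNB2 replicate 2 (0.153) or LMNB2 replicate 3 (0.111).

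The 3 that overlap no protein-coding gene had few counts. HSALNG0125765 (chr19:36528705-36535712) had 6, 6 and 15 counts in GFP, 8 to 15 in LMNA and LMNB1 and 40, 41 and 24 in LMNB2 (1.67 ± 0.27, adjusted p = 0.00697). HSALNG0125801 (chr19:37000572-37005060) had 5, 6 and 6 counts in GFP, 6 to 13 in LMNA and LMNB1 and 24, 16 and 20 in LMNB2 (1.44 ± 0.27, adjusted p = 0.018). For lnc-ZNF627-2 (chr19:11639751-11653108) the GFP counts were 9, 3 and 11, the LMNA and LMNB1 counts 11 to 16, and the LMNB2 counts 18, 39 and 33 (1.65 ± 0.34, adjusted p = 0.0217). In CPM the LMNB2 libraries of HSALNG0125765 and HSALNG0125801 lay above the other 9, while for lnc-ZNF627-2 LMNB2 replicate 1 (0.109 CPM) lay just below LMNA replicate 2 (0.11 CPM). The call of lnc-ZNF627-2 was lost without GFP replicate 2 (0.0589), LMNB2 replicate 2 (0.119) or LMNB2 replicate 3 (0.0965). The call of HSALNG0125765 was lost without LMNB2 replicate 2 (0.0516), and that of HSALNG0125801 without LMNB2 replicates 1 (0.0583) or 3 (0.085).

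The remaining 2 of the 10 lie in other genes. NONHSAG026010.2 (chr19:44907734-44909414, plus strand) lies in APOE, which encodes a lipid-carrying apolipoprotein. It had 5, 5 and 7 counts with GFP, 4, 7 and 4 with LMNA, 3, 8 and 5 with LMNB1 and 23, 34 and 26 with LMNB2, the largest of the 10 differences (1.88 ± 0.30, adjusted p = 0.00764). The minus-strand interval lnc-ZNF296-6 lies inside it and averaged 8.9 counts against 10.9. Over LMNA NONHSAG026010.2 differed by 2.12 ± 0.30 and over LMNB1 2.11 ± 0.30. NONHSAG026210.2 (chr19:49011167-49015951) lies in RUVBL2, an ATPase of chromatin remodelling complexes, and had 3, 3 and 9 counts in GFP, 5 to 14 in LMNA and LMNB1 and 24, 18 and 20 in LMNB2 (1.63 ± 0.30, adjusted p = 0.0167). Its call was lost without GFP replicate 2 or any one of the LMNB2 replicates (0.0509 to 0.0764), and that of NONHSAG026010.2 without LMNB2 replicate 2 (0.0577).

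Some of the other called intervals, chosen after their values were seen, lie in genes whose messenger RNAs are abundant in many cells. They are a pick from the 59 genes overlapped by called intervals. Whether their counts come from these messenger RNAs was not tested. In CALR, the gene of the chaperone calreticulin, NONHSAG024912.2 averaged 105.5 counts and had a log2 fold change of 1.09 (adjusted p = 0.0029). In EEF2, a translation elongation factor gene, lnc-DAPK3-2 averaged 117.4 counts and had 0.80 (adjusted p = 0.017). In FTL, the ferritin light chain gene, NONHSAG026207.2 had 0.85 (adjusted p = 0.0251). In RPL18, lnc-RPL18-1 had the smallest called change, 0.60 (adjusted p = 0.0484).

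By what they overlap, intervals in zinc finger genes (symbols starting with ZNF, ZFP, ZSCAN, ZIK1, ZIM or ZKSCAN) stood highest in LMNB2. This split, and those by megabase, were made after the values were seen. Of 136 tested intervals in zinc finger genes 44 were called in LMNB2 over GFP (32.4%, 26 of them sharing no base), with a median log2 fold change of 0.80 and 128 above 0. Of 474 intervals in other protein-coding genes only, 31 were called (6.54%, 24 of them sharing no base), with a median of 0.43. Of 111 intervals in no protein-coding gene 8 were called (7.21%, 7 of them sharing no base), with a median of 0.35. The same 3 classes had medians of -0.09 to 0.00 in LMNA and -0.01 to 0.06 in LMNB1 over GFP, with 0 calls. Intervals in zinc finger genes were longer (median 14436 bp) and had a slightly higher median mean count (17.7) than those in other genes (7390.5 bp and 15.0); the part of length in the difference was not tested. Of tested intervals over 18344 bp 38 of 180 were called, and of those up to 3846 bp 8 of 181, with medians of 0.53 and 0.41. Of these calls, 25 and 7 share no base.

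**Figure D4:**
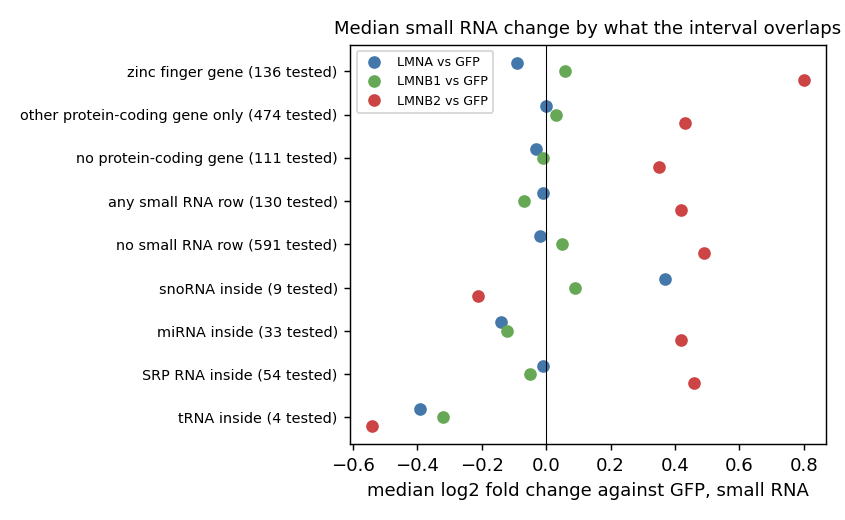
Median small RNA log2 fold change against GFP of tested intervals by what they overlap, a point per lamin; the number tested is in each label. The LMNB2 point of intervals in zinc finger genes is at 0.80, and those of intervals that hold a snoRNA or a transfer RNA are below 0.

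Along the chromosome the LMNB2 medians were uneven. Among the 44 megabases with at least 5 tested intervals, 38 had a median above 0. Between 36 and 38 Mb, 29 of 81 tested intervals were called (17 of the 29 sharing no base), with a median of 0.81. In the megabase starting at 12 Mb, 12 of 20 were called (7 of the 12 sharing no base), with a median of 1.04. Both are zinc finger clusters. In zinc finger genes elsewhere, 8 of 76 were called (5 of the 8 sharing no base), with a median of 0.61. From 27 to 34 Mb, next to the centromere on the long arm, 0 of 59 were called by edgeR with a median of 0.05. The megabase starting at 13 Mb, which holds the MIR23A, MIR27A and MIR24-2 cluster, had 8 tested intervals, 0 calls and a median of -1.04 in LMNB2, -0.86 in LMNA and -0.47 in LMNB1. GFP replicate 3 was the highest library for MIR24-2 and MIR27A, and its part in these medians was not tested.

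Intervals that hold a whole small RNA row were called as often as those that hold none, 12 of 104 against 71 of 617 (11.5% in both), with medians of 0.41 and 0.50. Of these calls, 9 and 47 share no base. By kind the values differed, without a test of the difference. The 9 tested intervals that hold a whole snoRNA had a median of -0.21 and 0 calls in LMNB2 over GFP, and the 4 that hold a transfer RNA gene had -0.54 and 0 calls. The 54 that hold a copy related to signal recognition particle RNA had 0.46 with 4 calls, and the 33 that hold a microRNA 0.42 with 6 calls. The 5 that hold a Y RNA row had 0.47 with 2 calls, the 3 that hold a ribosomal RNA row 0.68 with 1 call, and the 4 that hold an snRNA row (SNAR copies among them) 0.21 with 0 calls by edgeR. Intervals that overlap no small RNA row at all had a median of 0.49, with 66 of 591 called (11.2%), and those that overlap one had 0.42, with 17 of 130 (13.1%).

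A list of 77 small RNA rows of chromosome 19 (microRNAs, snoRNAs, SNAR and transfer RNA genes) was measured beside the intervals, and 37 of its rows lie whole inside one of them. Of the 69 tested, edgeR called 1 as higher and 4 as lower in LMNB2 over GFP, with a median of -0.18, and none in LMNA or LMNB1. The 4 lower rows (SNAR-C3, SNAR-C4 and MIRLET7E, which is listed as 2 rows) lie outside the intervals. Of the 36 tested rows inside, 1 was called, SNORD35A in the RPL13A interval NONHSAG026242.2. SNORD35A had 1.43, 1.38 and 2.34 CPM in GFP, 1.82 to 1.97 in LMNA, 1.69 to 1.93 in LMNB1 and 2.81, 3.08 and 2.98 in LMNB2 (0.78 ± 0.19, adjusted p = 0.0418). Its neighbour SNORD32A, the most read of the 4 snoRNAs there, had 167, 84.9 and 66.1 CPM in GFP and 128, 104 and 101 in LMNB2, so its groups overlapped. SNAR rows inside intervals (19 tested) had medians of 1.16 in LMNA, 0.57 in LMNB1 and -0.08 in LMNB2 with 0 calls. Most are SNAR-A rows, near-identical copies that share reads, each copy listed as nested SNAR-A1 and SNAR-A14 rows. The SNAR-B1 rows had -0.21 in LMNA and SNAR-D had -0.38, unlike the SNAR-A rows.

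Chromatin accessibility over the same intervals was measured with far more counts. In ATAC 2870 of the 2882 intervals were tested, with a median mean count of 234.2 per library, and edgeR called 0 of them in every comparison among the 4 groups. At an unadjusted p under 0.05 there were 124 in LMNA, 129 in LMNB1 and 172 in LMNB2 over GFP, of which 79, 89 and 46 were higher; lowest adjusted p-values were 0.563, 0.978 and 0.715. Of all windows, 5.19%, 4.78% and 5.72% passed that unadjusted threshold. Over all 163786 windows, 0.000611%, 0.00305% and 0.00244% were called in these comparisons. DESeq2 called 0 intervals in each of the 3. Medians were 0.03, 0.02 and -0.04 (the last turned to 0.07 when libraries were scaled by total counts only, against 0.11 over all windows), and the median interval relative to the GFP mean lay at -0.02 to 0.04 in the GFP libraries and at -0.05 to -0.02 in the LMNB2 libraries.

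Among the lamins, LMNB1 over LMNA had 55 ATAC intervals at an unadjusted p under 0.05, LMNB2 over LMNA 245 and LMNB2 over LMNB1 160, with 0 called by edgeR in each (0.223%, 0.00305% and 0.00305% of all windows). Of all windows, 5.37%, 7.17% and 4.98% passed the unadjusted threshold in these comparisons. Of the 245, 224 were lower in LMNB2, and the median was -0.06. DESeq2 called 2 intervals in LMNB2 over LMNA, both lower (113 of all 163785 windows, 72 of them lower). With edgeR on the 6 libraries of these groups alone, 43 were called, all lower (981 of all 159733 windows, 720 of them lower). The lowest p of this comparison in the fit of all 12 libraries belonged to HSALNG0127094 (chr19:50382492-50384012, in NR1H2, a sterol-sensing nuclear receptor gene), with 4.12, 4.15 and 4.57 CPM in LMNA and 3.17, 3.68 and 3.11 in LMNB2. Its libraries did not overlap, and its log2 difference of -0.37 ± 0.08 had an adjusted p of 0.443 in the fit of all 12 libraries and 0.0107 in the fit of 6.

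For LMNB2 over GFP the lowest ATAC p belonged to NONHSAG025023.2 in TPM4, a tropomyosin gene, with 1.92, 2.22 and 2.19 CPM in GFP and 1.51, 1.57 and 1.61 in LMNB2 (-0.43 ± 0.11, adjusted p = 0.715). Next were lnc-C19orf12-4 (0.69 ± 0.17) and NONHSAG025957.2 in ZNF283 (-0.65 ± 0.17), none of them called. The most open interval per length was lnc-POLR2I-1, which spans the start of POLR2I, a subunit gene of RNA polymerase II, with 12.9 CPM per kb of window. It had 23.6 ± 3.33 CPM in GFP and 24.1 ± 2.91 in LMNB2 (SD, n = 3), a log2 difference of 0.03 ± 0.11. Next came lnc-ZNF296-7, lnc-U2AF1L4-3 and lnc-EMP3-1 with 12.4 CPM per kb each, and log2 differences of -0.07 ± 0.08, -0.02 ± 0.07 and -0.13 ± 0.07 in LMNB2 over GFP.

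The 83 intervals called in small RNA had a median ATAC log2 fold change of -0.04 in LMNB2 over GFP (-0.29 to 0.16), 23 above 0 and 60 below, and the other 638 tested in both assays had -0.03. In GFP cells their ATAC level was 0.336 CPM per kb, against 0.330 in the other 638 and 0.212 in the 2149 intervals too weakly read to be tested in small RNA. By interval, lnc-ZNF567-4 had an ATAC difference of -0.25 ± 0.17, lnc-ZNF461-2 0.01 ± 0.07, lnc-ZNF136-1 -0.04 ± 0.12 and NONHSAG026386.2 -0.07 ± 0.07, beside small RNA differences of 1.77, 1.46, 1.56 and 1.45. Intervals in zinc finger genes had an ATAC median of -0.05.

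**Figure D5:**
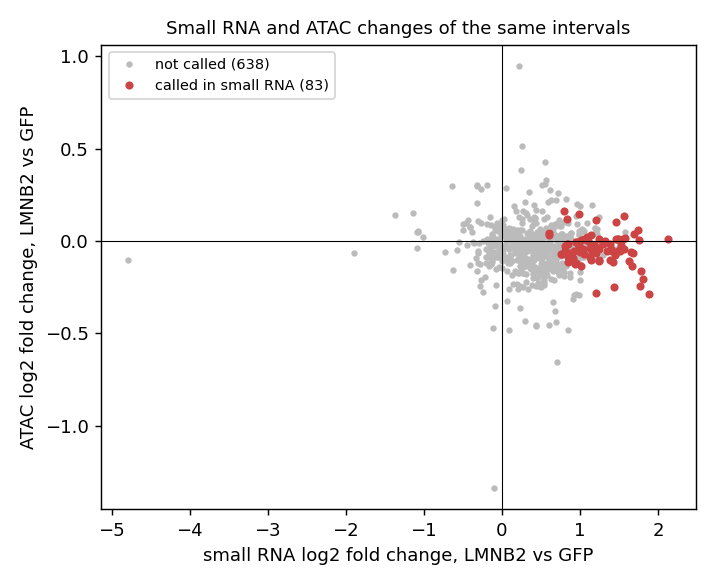
ATAC against small RNA log2 fold change of LMNB2 over GFP for the 721 intervals tested in both assays; red points are the 83 called in small RNA. The red points lie at 0.60 to 2.13 on the small RNA axis and between -0.29 and 0.16 on the ATAC axis.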

How the data were processed

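The authors deposited a table of raw counts per assay; the values are whole numbers whose library totals differ. Reads were placed on GRCh38, per the submitters' processing notes; the aligner, counter, use of strand, and handling of multi-mapping and duplicate reads are not given in the sources used here. Intervals on opposite strands with nearly the same extent have near-equal counts, so strand was not told apart there. Starts in the table lie 26 below, and ends 25 above, the RefSeq gene for most snoRNA and microRNA rows, so starts were printed as the deposited start plus 1; ATAC windows are 125 bp wider on each side. Gene overlaps and promoters come from RefSeq GRCh38.p14. For each assay a single edgeR 4.0.16 model under R 4.3.3 held all 12 libraries: filterByExpr, TMM scaling, robust quasi-likelihood test, Benjamini-Hochberg adjustment over all features, calls at adjusted p under 0.05, prior count 2. On simulated counts for LMNB2 over GFP, the small RNA fit (33893 features) found 35 of 100 changes of 2-fold and 95 of 100 of 4-fold with 3 false calls, and the ATAC fit (163786 windows) 96 and 99 with 6. The simulation gave every feature the same spread and changed only features above a mean-count limit. In small RNA that limit lay above the median of the tested intervals (15.2), so these rates do not cover the weakly read intervals. The SE printed beside an edgeR log2 fold change was computed as its size divided by the square root of the test's F statistic. DESeq2 1.42.0 was an alternative. Groups came from sample titles; the batch label is 1 in all small RNA and 2 in all ATAC libraries. Replicate libraries differed by more than sampling noise (chi-square per degree of freedom 3.18 or more). The members and lists were chosen with earlier results of these data known. Named intervals share no base within a list: the 8 most abundant; up to 10 called per direction in LMNB2 over GFP with a mean of at least 10 counts and separate libraries, ranked by fold change; up to 3 elsewhere, or the 3 lowest p; and the 4 most open ATAC windows of at least 1 kb.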

Additional observations from a re-analysis of the deposited data

How the results depend on the processing

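The intervals called in small RNA had a median of 21.8 counts per library, which limits the precision of each. Without a count filter, LMNA over GFP gave 2 calls, LMNB1 over GFP 5 and LMNB1 over LMNA 5, and the median of LMNB2 over GFP was 0.32. Of all 150622 features, that fit called 111 for LMNA over GFP, 127 for LMNB1 over GFP and 146 for LMNB1 over LMNA. Fitting only the 6 libraries compared gave 2 calls for LMNB2 over GFP, 169 over LMNA and 206 over LMNB1, 43 ATAC calls for LMNB2 over LMNA, and a median of 0.04 for LMNA over GFP. Over all features those fits called 21 of 28296, 3001 of 28716 and 4638 of 29906 in small RNA, and 981 of 159733 ATAC windows. Scaling by total counts only gave 55 calls for LMNB2 over GFP (median 0.71) and 9 over LMNB1, a median of 0.18 for LMNB1 over GFP, and in ATAC 2 calls for LMNB1 over GFP with medians of 0.12, 0.21 and 0.07 for LMNA, LMNB1 and LMNB2. That scaling moved the median of all features to 0.11 and 0.19 for LMNB1 and LMNB2 in small RNA and to 0.09, 0.19 and 0.11 in ATAC. It called 282 of all small RNA features for LMNB2 over GFP and 61 over LMNB1, and 110 ATAC windows for LMNB1 over GFP. DESeq2 gave 50 calls for LMNB2 over LMNA (550 of all 33840 features) and a median of 0.55 for LMNB2 over GFP. In ATAC it gave 2 calls for LMNB2 over LMNA (113 of all 163785 windows). A mean of at least 10 counts gave a median of 0.45 for LMNB2 over GFP. Counting only intervals that share no base gave 55, 52 and 48 calls for LMNB2 over GFP, LMNA and LMNB1. The cause of these shifts was not tested, apart from the last, which follows from its construction.

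Leaving out each of the 12 libraries in turn gave 11 to 113 calls for LMNB2 over GFP, 9 to 150 over LMNA, 18 to 150 over LMNB1, and 0 to 1 for LMNA over GFP. Counts of LMNB1 over GFP or LMNA, and of every ATAC comparison, ran from 0 to 0. Over all small RNA features the calls ran from 51 to 2101 for LMNB2 over GFP and from 35 to 2049 over LMNA. They ran from 144 to 2165 for LMNB2 over LMNB1, and from 0 to 304 for LMNA over GFP. Medians of the intervals ran from -0.04 to 0.04, 0.01 to 0.07 and 0.47 to 0.54 in small RNA for LMNA, LMNB1 and LMNB2 over GFP, and from 0.01 to 0.05, 0.01 to 0.05 and -0.05 to -0.02 in ATAC. None of the 10 intervals named as higher in LMNB2 over GFP reversed its direction in 19 alternatives. They were chosen for large changes and separate libraries, so this was largely fixed by the choice and nothing is read from it. Called intervals named after their values were seen were not followed through the alternatives.

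Same-numbered libraries did not deviate together throughout (correlations of -0.04 to 0.23 over 18 small RNA pairs and -0.08 to 0.19 over 18 ATAC pairs; best with the own number in 21 and 12 of 36), so the numbers were not taken as pairs. With the replicate block, 69, 76 and 67 intervals were called for LMNB2 over GFP, LMNA and LMNB1 and 0 in every other comparison of either assay. Over all small RNA features that fit called 729, 566 and 577 for LMNB2 over GFP, LMNA and LMNB1.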
